A study of Mus musculus with 6 samples.

Results

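The genes of the collagen chains, laminin chains and integrin subunits were examined in AML12, an established line of mouse hepatocytes. They were taken from the deposited count table by symbol, as every protein-coding gene named Col, Lama, Lamb, Lamc, Itga or Itgb with only a chain number or v after it. This gave 75 of 54532 genes, 44 collagen, 11 laminin and 20 integrin genes; the alpha chains with a letter in the symbol, such as Itgam, lie outside the rule. RNA was sequenced from 6 libraries of wild-type cells taken after 24 h, 3 labelled PP and 3 labelled PA/OA. The PP medium held 250 µg/ml of PP; the series title names Camellia oleifera meal peptides. PA/OA is the modelling reagent, given as 400 nM and 800 nM in the submitters' units. The label of the PP cells names PP alone, and the study's text leaves unstated whether they also received PA/OA. Untreated cells were not analysed here. The labels do not tie the replicates to separate cultures; the p-values therefore reflect library-to-library spread that could be technical.

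Collagens are built from 3 alpha chains wound into a triple helix. Collagen IV forms the sheet-like network of basement membranes, while collagens I, III and V form the fibrils of scar and connective tissue, which in liver come mainly from stellate cells. Laminins are heterotrimers of an alpha, a beta and a gamma chain that lie in the basement membrane. Integrins are pairs of an alpha and a beta subunit at the cell surface that bind these proteins and others. Integrin beta 1 pairs with many alpha chains, and alpha v pairs with several beta chains to bind proteins with an RGD motif, such as fibronectin and vitronectin.

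The collagen IV genes lie in head-to-head pairs, and the promoters of the abundant pair are shown because both genes were called higher in PP. Col4a1 (chromosome 8, 11198423 to 11312826, minus strand, build mm10) and Col4a2 (chromosome 8, 11312805 to 11449287, plus strand) start head to head, with annotated start sites 21 bases apart. The promoter windows of RefSeq (build GRCm38.p6, 300 bases, minus strand chr8:11312777-11313076 for Col4a1 and plus strand chr8:11312555-11312854 for Col4a2) share 78 bases. Capitals mark the shared bases, which read as reverse complements of each other in the lines for Col4a1 and Col4a2. The promoter window of Lama5 (minus strand, chr2:180225810-180226109) is given because Lama5 had the highest CPM of the 75 genes in PP libraries; its capitals mark the 4 matches to the GC box.
Col4a1: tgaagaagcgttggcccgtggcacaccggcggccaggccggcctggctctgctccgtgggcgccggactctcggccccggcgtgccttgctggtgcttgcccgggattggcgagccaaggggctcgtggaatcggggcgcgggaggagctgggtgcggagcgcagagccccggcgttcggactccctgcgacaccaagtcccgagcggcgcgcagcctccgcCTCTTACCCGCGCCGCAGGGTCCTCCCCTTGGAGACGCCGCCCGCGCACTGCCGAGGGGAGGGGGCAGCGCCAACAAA
Col4a2: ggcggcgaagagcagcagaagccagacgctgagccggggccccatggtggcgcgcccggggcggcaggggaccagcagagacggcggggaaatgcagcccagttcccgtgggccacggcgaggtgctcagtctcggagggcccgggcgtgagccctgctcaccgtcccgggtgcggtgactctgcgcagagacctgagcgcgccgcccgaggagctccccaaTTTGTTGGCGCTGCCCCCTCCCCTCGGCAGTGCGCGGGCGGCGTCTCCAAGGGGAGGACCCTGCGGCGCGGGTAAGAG
Lama5: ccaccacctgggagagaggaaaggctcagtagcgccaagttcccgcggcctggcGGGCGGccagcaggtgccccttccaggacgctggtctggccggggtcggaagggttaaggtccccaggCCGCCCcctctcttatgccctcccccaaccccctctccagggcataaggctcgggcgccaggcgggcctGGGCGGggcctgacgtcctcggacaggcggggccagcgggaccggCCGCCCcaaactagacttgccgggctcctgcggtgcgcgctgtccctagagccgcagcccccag
The GC box was searched as GGGCGG on both strands, and matches may overlap one another. Of the 45 genes tested, 33 had a window in the RefSeq table, and 20 of these (60.6%) held the GC box, beside 46.3% of 17492 protein-coding genes. The 17492 genes were not filtered on counts. Their window was the first listed, while that of the 33 was the nearest to the annotated start, so these shares are not matched. Among the genes that rose in PP, 6 of 9 with a window held it, and among those that fell, 8 of 16. A match describes these letters only.

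In PP libraries, mRNA was higher for the laminin chains Lama5 and Lamc1, for the integrin subunits Itgav, Itga5, Itgb3, Itgb7 and Itgb2, and for the collagen IV chain Col4a5. It was lower for the integrin subunits Itgb6, Itga1 and Itga2 and for the laminin chains Lama3 and Lamb1. Lower as well were 13 of 22 collagens tested, beside 39.9% of all genes tested. Among the 13 were Col27a1, Col15a1, Col6a2, Col9a3 and Col4a4. The falls of Col6a1, Col7a1, Col11a2, Col16a1 and Col20a1 were lost under some of the other settings given below. Itgb1, the beta chain with the highest level per kb, averaged 737 ± 13.6 CPM in PP and 711 ± 37.0 CPM in PA/OA. CPM are counts scaled by library total and TMM factor, given as the mean ± SD over 3 libraries. A gene rose or fell where edgeR's quasi-likelihood test gave an adjusted p under 0.05 over all genes tested, and fold changes are given on the log2 scale, PP minus PA/OA, ± SE.

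**Figure D1:**
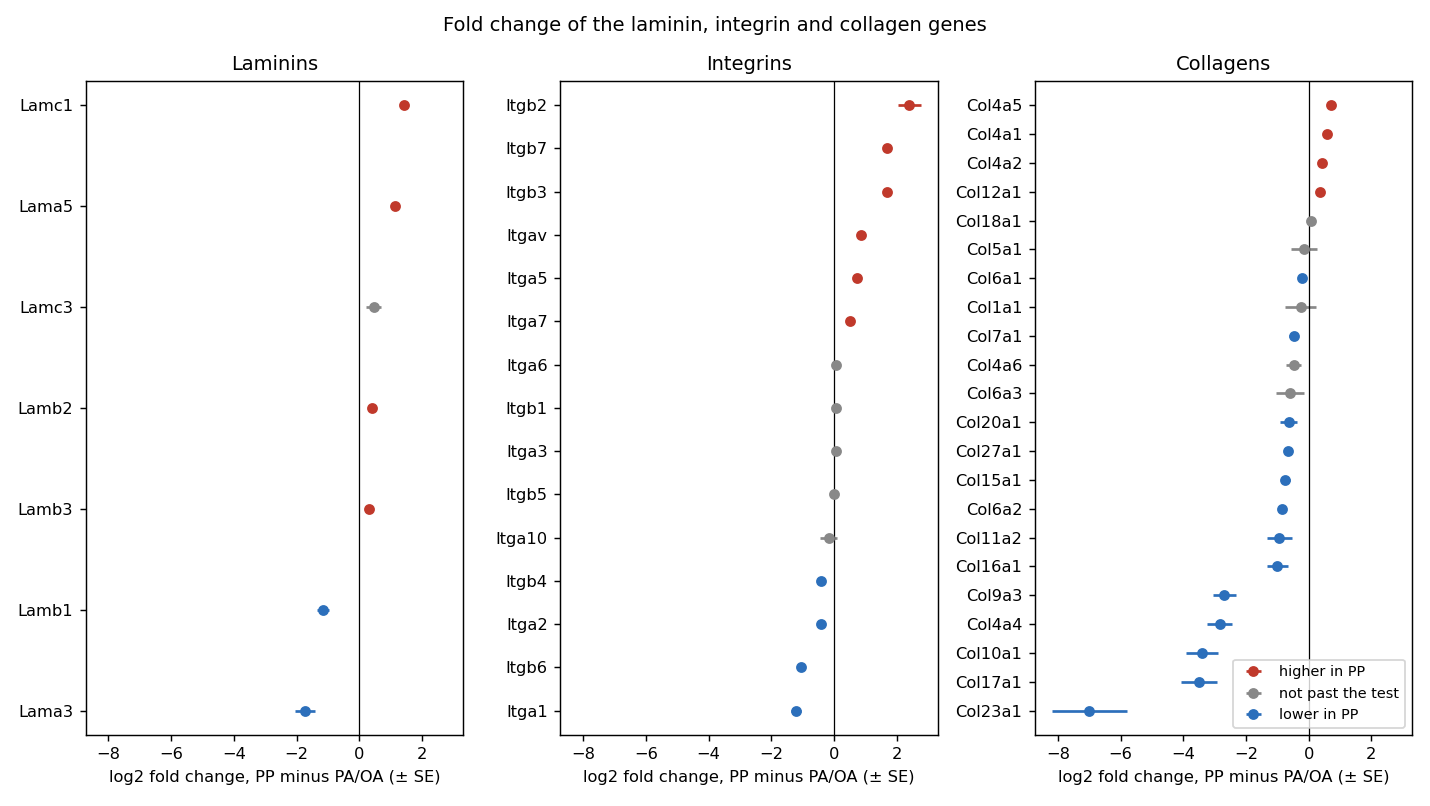
Log2 fold change of PP minus PA/OA (x axis, points with SE) for 7 laminin, 15 integrin and 22 collagen genes tested, ordered by value. Genes that rose in PP are red, genes that fell are blue and genes not past the test are grey; 13 collagens lie on the blue side and 4 of the laminins shown on the red side.

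Of the 75 genes, 8 held no count in any library, 22 held too few to be tested and 45 passed the filter on low counts. Of these 45, 34 differed (75.6%), where 75% of all 15718 genes tested did. Higher were 15 genes (33.3%, beside 35.1% of all genes) and lower were 19 (42.2%, beside 39.9%), so the share called was close to that of all genes. The groups did not overlap for 37 of the 45 genes, and for 77.4% of all genes. At least 2-fold higher were 5 of the 45 genes, beside 12.1% of all genes, and at least 2-fold lower were 9, beside 24.5%. The median log2 fold change of the 45 genes was -0.17, and that of all genes tested -0.09. Without TMM, on library size alone, 9 of the 45 genes rose and 28 fell, as did 3235 and 8910 of all genes. The median of all genes was then -0.52, so a gene printed below at -0.14 under that scaling still lies above that median. Of 8 laminin genes tested, 5 rose and 2 fell, with a median of 0.44. Of 15 integrin genes 6 rose and 4 fell, with a median of 0.05, and of 22 collagen genes 4 rose and 13 fell, with a median of -0.62. On library size alone 2 laminins rose and 3 fell (median 0.0027), 5 integrins rose and 9 fell (median -0.38), and 2 collagens rose and 16 fell (median -1.05). With the abundance trend removed 4 laminins rose and 3 fell (median 0.11), 5 integrins rose and 8 fell (median -0.24), and 2 collagens rose and 11 fell (median -0.31). With upper-quartile scaling 6 integrins rose and 8 fell. Whether these families differ from each other was not tested.

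The direction of change moved with the abundance of a gene, in these genes as in all genes. Below an average log2 CPM of 0, none of 3 genes rose and 1 fell, beside 6.65% and 53.4% of all genes of that abundance. At 6 or more, 10 of 16 rose and 2 fell, beside 67% and 20.7% of all genes of that abundance. From 3 to 6, 4 of 11 rose and 6 fell, beside 40.1% and 39.3% of all genes. From 0 to 3, 1 of 15 rose and 10 fell, beside 18.3% and 49.2% of all genes. The part of this trend in the results below was not tested gene by gene, but values with each library's trend removed are given where they end a call. That setting and those named in the closing section were 18 alternatives in all. In every one in which they were tested, 22 of the 34 calls held. These are the rises of Itgb2, Itgb7, Itgb3, Lamc1, Lama5, Itgav, Itga5 and Col4a5, and the falls of Itgb4, Itga2, Col27a1, Col15a1, Col6a2, Itgb6, Lamb1, Itga1, Lama3, Col9a3, Col4a4, Col10a1, Col17a1 and Col23a1.

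**Figure D2:**
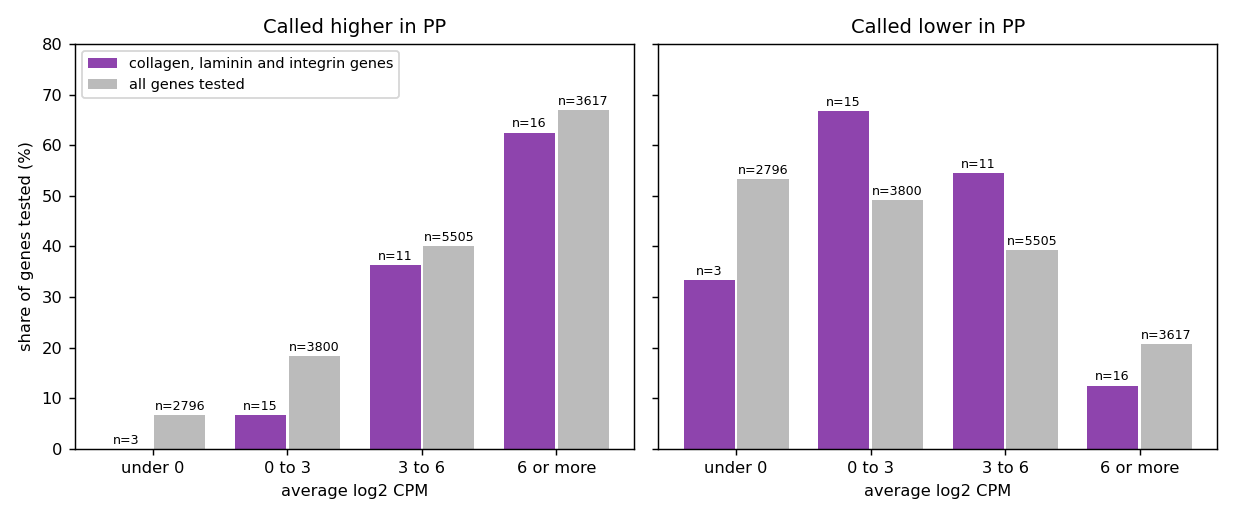
Share of genes called higher in PP (left) and lower in PP (right), in percent of genes tested, by average log2 CPM; purple bars are the collagen, laminin and integrin genes and grey bars all genes tested, with the number of genes above each bar. In both sets the share called higher grows with abundance, to 62.5% and 67% in the top class.

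Laminin chains. Lama5 (chromosome 2, 180176373 to 180225859), the alpha chain of laminins found in most adult basement membranes, had 1947, 1686 and 1876 CPM in PP libraries, against 884, 761 and 841 CPM in PA/OA libraries. All PP values lay above all PA/OA values, and the gene rose by 1.15 ± 0.06 (adjusted p = 3.11e-13, edgeR). It took 99.9% of the summed CPM per kb of the laminin alpha genes in PP and 99.7% in PA/OA. With the abundance trend removed its log2 fold change was 0.41. Lamc1 (chromosome 1, 153218922 to 153332786), the common gamma chain, had 708, 673 and 682 CPM in PP, against 267, 251 and 251 CPM in PA/OA. The groups were far apart and the gene rose by 1.42 ± 0.05 (adjusted p = 4.95e-16, edgeR), or by 0.85 with that trend removed. Lamb2, the beta chain that replaces beta 1 in several adult basement membranes, had 144, 137 and 145 CPM in PP, against 112, 96.0 and 110 CPM in PA/OA, and rose by 0.42 ± 0.06. Lamb1 was scarce and fell, with 3.83, 3.62 and 2.73 CPM in PP, against 6.79, 7.69 and 8.29 CPM in PA/OA (log2 fold change -1.16 ± 0.19, adjusted p = 7.91e-06, edgeR). Both can join alpha 5 and gamma 1 in a trimer, and the scarcer of them fell while the more abundant one rose. The rise of Lamb2 was lost with the trend removed (0.036, adjusted p = 0.620, edgeR), and its value was -0.016 with library size only.

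The alpha 3 and beta 3 chains belong to the anchoring laminin of epithelia, and Lamb3 rose while Lama3 fell, though Lamb3 was lower under other scalings given next. Lamb3, the beta chain, had 827, 876 and 795 CPM in PP, against 695, 652 and 686 CPM in PA/OA. Its values did not overlap and its log2 fold change was 0.30 ± 0.05, but it was lower with the abundance trend removed (-0.37) and with library size only (-0.14), and did not pass with upper-quartile scaling (0.059, adjusted p = 0.313, edgeR). The annotation places G0s2, Hsd11b1 and other genes over Lamb3, and no use of strand is given, so its counts are uncertain. Lama3, the alpha chain, was near the low end, with 0.842, 0.796 and 0.655 CPM in PP, against 2.46, 3.06 and 2.04 CPM in PA/OA. It fell by 1.72 ± 0.32 on the log2 scale, and in PP its 3 libraries held 20, 22 and 18 counts. Per kb of gene length, Lamb3 stood 1786 ± 187 times above Lama3 in PP and 451 ± 101 times in PA/OA (SD, n = 3 each). Lamc3, a further gamma chain, was at 3.40 ± 0.127 CPM in PP and 2.48 ± 0.272 CPM in PA/OA, which did not pass (0.46 ± 0.23, adjusted p = 0.0752, edgeR); with the abundance trend removed it passed as higher (0.93, adjusted p = 0.00105, edgeR). Lama1 had no count, and Lama2 and Lama4 too few to test.

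Collagen IV. The head-to-head genes Col4a1 and Col4a2 code for the chains of the common collagen IV trimer. Col4a1 had 420, 419 and 427 CPM in PP, against 294, 270 and 281 CPM in PA/OA, and rose by 0.58 ± 0.05 (adjusted p = 1.28e-09, edgeR). Col4a2 had 418, 409 and 408 CPM in PP, against 314, 287 and 319 CPM in PA/OA, and rose by 0.42 ± 0.05 (adjusted p = 3.09e-07, edgeR). In both genes every PP library lay above every PA/OA library. Their ratio per kb, Col4a1 over Col4a2, was 0.909 ± 0.0176 in PP and 0.815 ± 0.0298 in PA/OA (SD, n = 3 each). With the abundance trend removed neither rise remained (Col4a1 0.041, adjusted p = 0.482; Col4a2 -0.12, lower with adjusted p = 0.0461, edgeR), and with library size only Col4a2 stood at -0.011 (adjusted p = 0.858, edgeR).

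**Figure D3:**
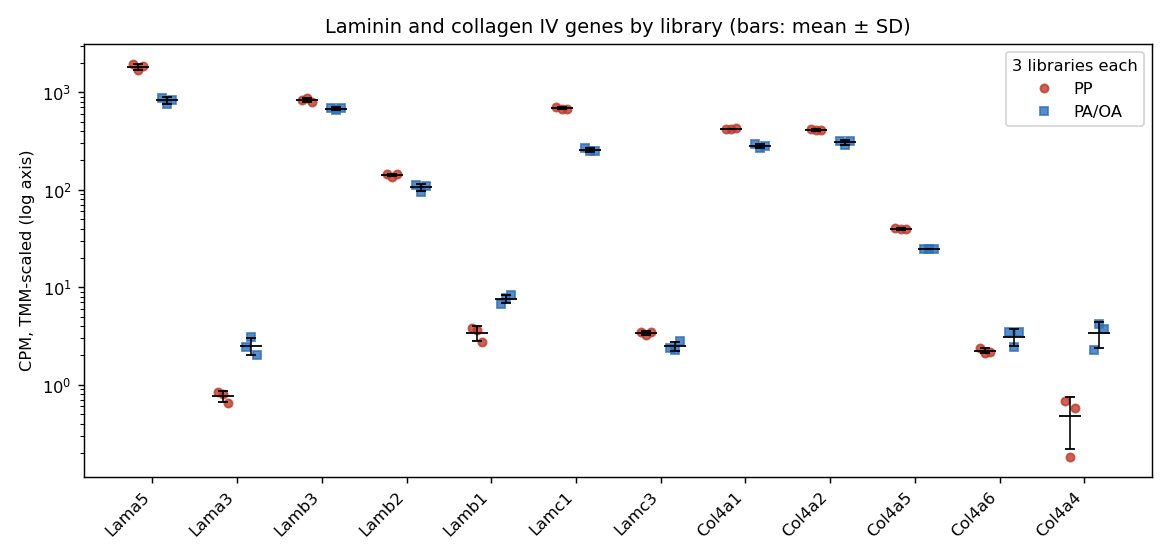
CPM with TMM scaling (log axis) of 7 laminin and 5 collagen IV genes tested, each library as a point, PP in red left of PA/OA in blue, with bars for mean ± SD (n = 3 each). Lama5 and Lamc1 lie farthest apart among the abundant genes, and Lama3, Lamb1 and Col4a4 lie lower in PP.

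The other collagen IV genes went separate ways. Col4a5 (chromosome X, 141475385 to 141689234), an X-linked chain of the minor networks, had 40.7, 39.3 and 39.4 CPM in PP, against 24.5 CPM in each PA/OA library. It rose by 0.70 ± 0.08 (adjusted p = 5.07e-08, edgeR). Its head-to-head neighbour Col4a6, with a start site 1309 bases away, had 2.40, 2.14 and 2.18 CPM in PP, against 3.48, 2.43 and 3.47 CPM in PA/OA. At -0.48 ± 0.25 it did not pass (adjusted p = 0.0821, edgeR), though it passed as lower without PA/OA replicate 2 (-0.63, adjusted p = 0.0402, edgeR), with library size only (-0.92) and with upper-quartile scaling (-0.72). Col4a4, a chain of the specialised network of the kidney glomerulus, had 0.673, 0.181 and 0.582 CPM in PP, against 2.26, 4.23 and 3.75 CPM in PA/OA. It fell by 2.84 ± 0.39 on the log2 scale (adjusted p = 9.59e-07, edgeR), from 37 counts in all over PP and 303 over PA/OA. Its neighbour Col4a3 held 4 counts over PP and 19 over PA/OA and was not tested.

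Other collagens. Col18a1, the parent chain of endostatin and a collagen of basement membranes, had the highest level per kb of the collagens, with 659, 660 and 669 CPM in PP, against 622, 615 and 651 CPM in PA/OA. At 0.07 ± 0.05 it did not pass (adjusted p = 0.189, edgeR), and it was lower with library size only (-0.36), with upper-quartile scaling (-0.16) and with the abundance trend removed (-0.57). Its relative Col15a1 had 19.7, 16.0 and 21.4 CPM in PP, against 40.3, 27.1 and 27.8 CPM in PA/OA, and fell by 0.74 ± 0.13 (adjusted p = 3.19e-05, edgeR). The transmembrane collagens Col17a1, of epithelial hemidesmosomes, and Col23a1 were close to absent in PP. Col17a1 held 1, 1 and 11 counts in PP, against 71, 62 and 36 in PA/OA. It fell by 3.48 ± 0.58, or by 5.42 without PP replicate 3, the PP library that held most of its counts. Col23a1 held no count in PP, against 13, 18 and 19 counts in PA/OA. Taking a floor of 3 counts over the PP group, it was at least 14.7-fold lower in PP, with no allowance for error in the PA/OA counts.

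The beaded-filament chains Col6a1 and Col6a2, both on chromosome 10, differed in the size of their fall. Col6a1 had 76.0, 75.0 and 77.0 CPM in PP, against 92.5, 82.5 and 86.4 CPM in PA/OA, and fell by 0.20 ± 0.06. That fall did not pass without PA/OA replicate 1 (-0.15, adjusted p = 0.0654, edgeR) or with a length trend removed (-0.095, adjusted p = 0.161, edgeR). Col6a2 had 11.3, 10.7 and 8.33 CPM in PP, against 16.7, 19.0 and 18.9 CPM in PA/OA, and fell by 0.85 ± 0.13 (adjusted p = 2.94e-06, edgeR). Col6a3 held 12, 18 and 12 counts in PP, against 26, 22 and 24 in PA/OA, and did not pass (-0.60 ± 0.45, adjusted p = 0.231, edgeR), though it passed as lower with library size only (-1.03). Col7a1, the anchoring fibril collagen, had 9.85, 10.5 and 8.81 CPM in PP, against 14.9, 11.1 and 14.5 CPM in PA/OA, and fell by 0.48 ± 0.14; with the abundance trend removed it did not pass (adjusted p = 0.0757, edgeR). Col10a1, a short-chain collagen of growth cartilage, fell by 3.40 ± 0.52, with 0.168, 0.217 and 0.0728 CPM in PP, against 1.15, 1.76 and 2.04 CPM in PA/OA; it lies over Nt5dc1 in the annotation.

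Of the 4 fibrillar collagens tested, 2 fell and none rose, where 39.9% of all genes tested fell and 35.1% rose. Col27a1, the most abundant of them, had 26.9, 22.8 and 27.1 CPM in PP, against 42.2, 38.2 and 42.0 CPM in PA/OA, and fell by 0.67 ± 0.09 (adjusted p = 4.58e-07, edgeR). Col11a2 fell by 0.93 ± 0.39, a call lost without PP replicate 3 (-0.50, adjusted p = 0.198) or without PA/OA replicate 1 (-0.83, adjusted p = 0.124) or 3 (-0.89, adjusted p = 0.0967, all edgeR). Col11a2 also did not pass with the abundance trend removed (-0.19, adjusted p = 0.674, edgeR) or in DESeq2 (adjusted p = 0.0503). Col1a1, the main chain of scar collagen, had 0.421, 0.398 and 1.35 CPM in PP, against 0.956, 0.966 and 0.679 CPM in PA/OA. The groups overlapped, and neither it (adjusted p = 0.645, edgeR) nor Col5a1 (adjusted p = 0.752, edgeR) passed. Without PP replicate 3 the log2 fold change of Col1a1 was -1.06, beside -0.26 with it. Col1a2, Col2a1, Col3a1, Col5a2, Col5a3, Col11a1 and Col24a1 held too few counts to test. Among the fibril-associated collagens, Col9a3 fell by 2.69 ± 0.36, to 0.421, 0.471 and 0.327 CPM in PP, against 3.38, 2.13 and 2.43 CPM in PA/OA; the gene Tcfl5 lies over it in the annotation. Col16a1 fell by 0.99 ± 0.34, a call lost without PA/OA replicate 1 (-0.83, adjusted p = 0.0767) or PP replicate 2 (-0.68, adjusted p = 0.0703) and with the abundance trend removed (-0.35, adjusted p = 0.360, all edgeR). Col20a1 fell by 0.64 ± 0.28 with groups that overlapped, a call lost without PA/OA replicate 1 (-0.42) or 2 (-0.66) or PP replicate 2 (-0.41) and under the replicate block (adjusted p = 0.0569, edgeR). It was also lost with the abundance trend removed (-0.12, adjusted p = 0.695, edgeR), with the length trend removed (adjusted p = 0.0615, edgeR) and in DESeq2 (adjusted p = 0.0560). Col12a1 was the only one of these to rise, with 16.2, 13.1 and 13.8 CPM in PP, against 13.1, 10.3 and 10.2 CPM in PA/OA (0.35 ± 0.13, adjusted p = 0.0189, edgeR). That call was lost without PP replicate 1 (adjusted p = 0.0814) or PA/OA replicate 2 (0.0709) or 3 (0.0809, all edgeR), and Col12a1 stood at -0.080 with library size only and at 0.12 with upper-quartile scaling.

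The genes nearest to the filter on low counts were Col23a1, tested with 50 counts in all, and Col3a1, Col14a1 and Itga11, not tested. Col14a1 held no count in PP and 6, 8 and 17 in PA/OA. Itga11 held 2, 0 and 2 counts in PP and 7, 7 and 13 in PA/OA. A count of 0 in all 6 libraries, as for Col9a1, Col13a1, Col19a1, Col26a1, Col6a4, Lama1, Itga8 and Itga9, allows up to 0.0178 CPM, for counting error only.

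Integrin beta subunits. Itgb3 (chromosome 11, 104608000 to 104670476), the partner of alpha v in the vitronectin receptor, had 69.1, 67.5 and 72.0 CPM in PP, against 23.5, 19.1 and 21.8 CPM in PA/OA. It rose 3.24-fold (log2 fold change 1.70 ± 0.08, adjusted p = 3.45e-14, edgeR). Itgb6 (chromosome 2, 60598292 to 60722643), an epithelial partner of alpha v known for activating latent TGF-beta, went the other way. It had 36.9, 37.2 and 43.7 CPM in PP, against 80.7, 83.1 and 78.6 CPM in PA/OA, and fell by 1.04 ± 0.07 (adjusted p = 2.59e-11, edgeR). Both gaps were wider than the spread in either group, and per kb the ratio of Itgb3 to Itgb6 was 2.14 ± 0.140 in PP and 0.321 ± 0.0385 in PA/OA (SD, n = 3 each). The order of these alpha v partners was thus reversed in all 3 PP libraries relative to all 3 PA/OA libraries. Itgb5, a further partner of alpha v, had 57.6, 65.7 and 59.1 CPM in PP, against 59.5, 59.4 and 62.1 CPM in PA/OA, and did not pass (0.01 ± 0.07, adjusted p = 0.886, edgeR); it was lower with library size only (-0.42), with upper-quartile scaling (-0.23) and with the abundance trend removed (-0.24), and higher with the length trend removed (0.17, adjusted p = 0.0304, edgeR). Itgb8 held 2 counts over each group and was not tested. Itgb1 overlapped between the groups (0.05 ± 0.05, adjusted p = 0.378, edgeR); it was lower with library size only (-0.38), with upper-quartile scaling (-0.19) and with the abundance trend removed (-0.61), and higher with a length trend removed (0.17). Itgb4, the long-tailed partner of alpha 6 in hemidesmosomes, had 27.4, 29.2 and 28.0 CPM in PP, against 38.6, 33.7 and 39.8 CPM in PA/OA, and fell by 0.40 ± 0.08.

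The beta chains typical of leukocytes rose, while their alpha partners stayed scarce. Itgb7 (chromosome 15, 102215995 to 102231944), which pairs with alpha 4 and alpha E, had 43.3, 42.7 and 42.6 CPM in PP, against 13.6, 12.3 and 13.8 CPM in PA/OA (1.70 ± 0.09, adjusted p = 1.32e-13, edgeR). Itga4 held 2, 0 and 2 counts in PP and none in PA/OA. Itgae, the alpha E gene, which is not among the 75, held 2, 6 and 9 counts in PP, against 26, 21 and 11 in PA/OA, and fell by 1.57 ± 0.58 (adjusted p = 0.0194, edgeR). Itgb2, the beta chain shared by the leukocyte integrins, held 95, 120 and 117 counts in PP, against 39, 6 and 26 in PA/OA, and rose by 2.40 ± 0.37 (adjusted p = 4.41e-06, edgeR). Its partners Itgal, Itgam, Itgax and Itgad held 5, 2, 1 and 13 counts over the PP libraries, against 16, 0, 1 and 23 over PA/OA, and were not tested; these partners and Itgae were looked up after the values of Itgb7 and Itgb2 were seen. Of 10 macrophage and leukocyte markers, 3 were tested, of which Cd68 alone rose, or 3 rose with the abundance trend removed. Adgre1, Clec4f, Marco, Timd4 and Vsig4 held no count, while Ptprc held 8 counts over PP and 20 over PA/OA. The summed level of the 10 markers was 27.1, 28.2 and 30.1 CPM in PP, against 3.99, 3.66 and 4.22 CPM in PA/OA. Cd68 alone averaged 27.3 CPM in PP and 2.78 CPM in PA/OA. The part of leukocyte RNA in the rise of Itgb7 and Itgb2 was not tested. In bulk RNA, a change in the number of cells of a type and a change in RNA per cell cannot be told apart.

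Integrin alpha subunits. Of the 3 RGD-binding chains among the 75 genes, Itga8 held no count. The 2 tested both rose, beside 35.1% of all genes tested. Itgav (chromosome 2, 83724397 to 83806916), alpha v, had 647, 604 and 651 CPM in PP, against 345, 373 and 325 CPM in PA/OA (0.87 ± 0.06, adjusted p = 8.66e-12, edgeR). Itga5, the fibronectin receptor chain, had 98.3, 95.5 and 95.3 CPM in PP, against 57.6, 57.6 and 59.4 CPM in PA/OA (0.73 ± 0.06, adjusted p = 3.46e-10, edgeR). For both genes the PP libraries lay above all PA/OA libraries, and with the abundance trend removed Itgav stood at 0.28 and Itga5 at 0.43. Of the 3 collagen-binding chains tested, 2 fell, beside 39.9% of all genes tested. Itga2, which binds collagen with beta 1, had 205, 213 and 224 CPM in PP, against 276, 298 and 286 CPM in PA/OA (-0.42 ± 0.05, adjusted p = 4.02e-07, edgeR). Itga1, the other widely expressed collagen receptor chain, had 4.29, 4.31 and 4.77 CPM in PP, against 10.7, 10.3 and 9.79 CPM in PA/OA (-1.20 ± 0.15, adjusted p = 3.20e-07, edgeR). The gene Pelo lies within Itga1 in the annotation, so the counts of Itga1 are uncertain. Itga10 had 2.16 ± 0.206 CPM in PP and 2.43 ± 0.324 CPM in PA/OA and did not pass (-0.17 ± 0.26, adjusted p = 0.555, edgeR); with library size only it passed as lower (-0.61), and with the abundance trend removed it stood at 0.36.

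Of the laminin-binding chains, Itga7 rose, with 135, 141 and 143 CPM in PP, against 103, 87.3 and 107 CPM in PA/OA (0.50 ± 0.07, adjusted p = 6.74e-07, edgeR). The rise of Itga7 was lost with library size only (0.061, adjusted p = 0.414, edgeR) and with the abundance trend removed (0.12, adjusted p = 0.112, edgeR). Itga3 had 437, 425 and 449 CPM in PP, against 416, 374 and 476 CPM in PA/OA, and Itga6 206, 198 and 212 CPM in PP, against 198, 201 and 191 CPM in PA/OA. Both overlapped between the groups and did not pass (Itga3 0.05 ± 0.07, adjusted p = 0.499; Itga6 0.06 ± 0.05, adjusted p = 0.298, edgeR). Without PA/OA replicate 3, Itga3 passed as higher (0.15, adjusted p = 0.0265, edgeR). Both were lower with library size only (-0.38 and -0.37), with upper-quartile scaling (-0.19 and -0.18) and with the abundance trend removed (-0.53 and -0.40). Of the summed CPM per kb of the alpha chains, Itga3 took 33.9% ± 0.0541 in PP and 38.1% ± 3.30 in PA/OA. Itgav took 26.1% ± 0.543 in PP and 16.8% ± 1.73 in PA/OA, and Itga2 13.3% ± 0.481 and 20.8% ± 1.27. The second place thus belonged to Itgav in every PP library and to Itga2 in every PA/OA library. Of the beta chains, Itgb1 took 76.6% ± 0.0881 in PP and 80.4% ± 1.23 in PA/OA.

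**Figure D4:**
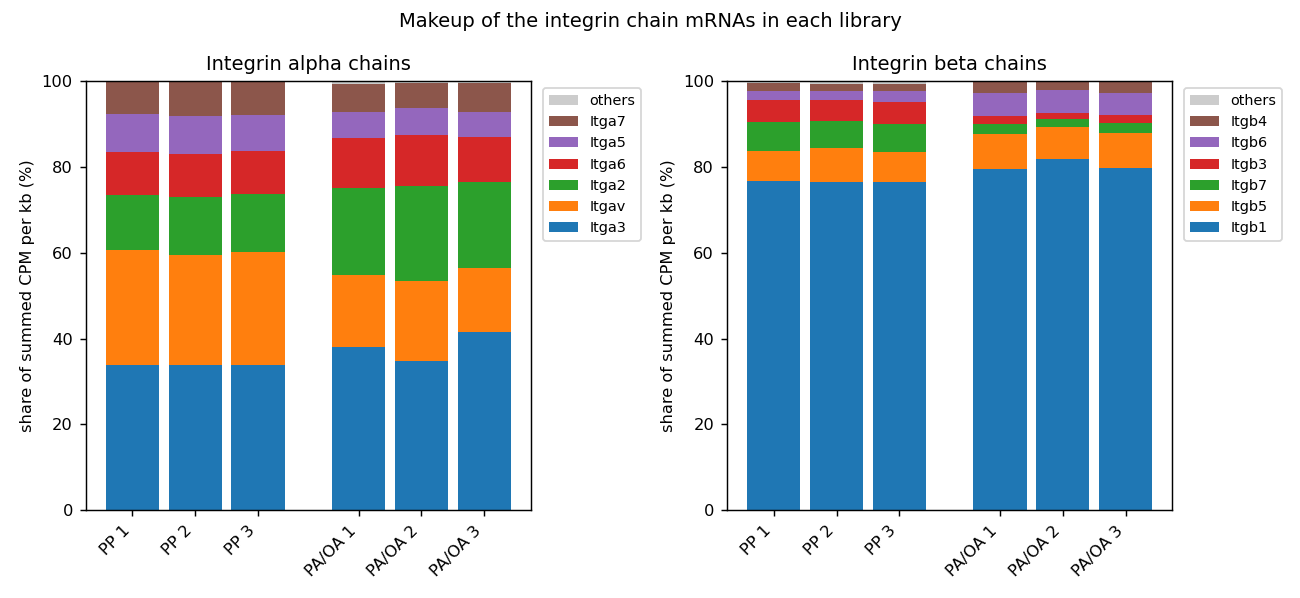
Share of the summed CPM per kb (y axis, percent) held by each integrin alpha gene (left) and beta gene (right) in each library, the 3 PP libraries left of the 3 PA/OA libraries. Itgav is the second largest alpha share in PP and Itga2 in PA/OA; Itgb3 and Itgb7 widen and Itgb6 narrows in PP.

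Genes that act with these proteins were counted from 7 lists, whose calls can be read beside 35.1% of all genes called higher and 39.9% lower. Of 22 genes tested for collagen modification and processing, 12 rose and 8 fell, with a median log2 fold change of 0.27, beside -0.09 for all genes. P4ha1, a catalytic subunit of collagen prolyl hydroxylase, had 725, 756 and 766 CPM in PP, against 199, 210 and 196 CPM in PA/OA. P4hb, the shared beta subunit, averaged 1826 ± 63.6 CPM in PP and 697 ± 7.56 CPM in PA/OA. The lysyl hydroxylase gene Plod2 averaged 29.3 ± 2.38 CPM in PP and 3.53 ± 0.235 CPM in PA/OA. Tll1, a procollagen C-proteinase, fell to 24.4 ± 0.390 CPM in PP, against 115 ± 0.423 CPM in PA/OA. On library size alone, 7 of these 22 genes rose and 11 fell. Of 10 metalloproteinase and inhibitor genes, 1 rose (Mmp13) and 8 fell, with a median of -1.84. Mmp14, a membrane-bound collagenase, fell by 1.68, Mmp28 by 2.00, Mmp24 by 3.46 and the inhibitor Timp2 by 0.53. The value of Mmp24 is imprecise, with 2, 10 and 18 counts in PP against 142, 80 and 150 in PA/OA, and BC029722 lies over it in the annotation. Of 12 basement membrane partners, with a median of 0.13, 4 rose and 5 fell. With library size only 2 rose and 7 fell, and with the abundance trend removed 4 rose and 8 fell. Tinagl1 rose by 1.19, while Npnt, a ligand of alpha 8 beta 1, fell by 0.82, Ntn4 by 1.18 and the peroxidase gene Pxdn, which cross-links collagen IV, by 2.77.

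Of 8 genes of other integrin ligands, 4 rose and 3 fell, with a median of 0.37. Fn1, fibronectin, averaged 1465 ± 30.9 CPM in PP and 633 ± 28.2 CPM in PA/OA. Mfge8, an RGD ligand of alpha v integrins, rose by 1.54 and Spp1, osteopontin, by 1.37. Of 10 non-integrin receptor genes, with a median of 0.32, 6 rose and 2 fell, or 3 and 5 with library size only. Ddr2, a receptor kinase for fibrillar collagen, fell to 29.7 ± 1.52 CPM in PP, against 138 ± 3.45 CPM in PA/OA. Dag1, dystroglycan, which binds laminin, rose by 1.24, Cd47 by 1.21 and Sdc4 by 0.93. Of 36 genes of integrin activation and focal adhesions, 20 rose and 10 fell, with a median of 0.28. On library size alone 10 rose and 19 fell, and with the abundance trend removed 13 rose and 18 fell. The kindlins, which bind integrin beta tails, parted. Fermt2 averaged 184 ± 8.70 CPM in PP and 33.3 ± 2.45 CPM in PA/OA, and Fermt1 17.3 ± 1.81 CPM in PP and 69.3 ± 0.215 CPM in PA/OA. Lims2 rose by 2.06 and Plec, the plectin gene, fell by 1.53. Of 19 genes of TGF-beta ligands, receptors and SMADs, with a median of 0.16, 9 rose and 6 fell, or 5 and 10 with library size only. Tgfbr3 rose by 2.16, Smad7 by 1.10 and Smad4 by 0.87.

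Total counts ran from 24113169 to 32560589 per library, and the first principal component, with 85.6% of the variance, parted the groups. Calls of cell type markers can be read beside 35.1% of all genes called higher and 39.9% lower. Of 14 hepatocyte markers, 7 were tested, none rose and 4 fell, or 2 rose and 3 fell with the abundance trend removed. Alb averaged 9.90 CPM in PP and 12.2 CPM in PA/OA, and Tat and Serpina1c held no count. The summed level of the 14 markers was 122, 119 and 138 CPM in PP, against 345, 351 and 365 CPM in PA/OA. Of 9 markers of bile duct cells, 6 were tested, 5 rose and 1 fell, or 3 rose and 2 fell with the abundance trend removed. The keratin Krt19 averaged 3513 CPM in PP and 2011 CPM in PA/OA, while Epcam and Cftr held no count. Of 14 stellate cell and fibroblast markers, 3 were tested and 2 fell, or 0 with the abundance trend removed. Their summed level was 3.16, 2.79 and 3.86 CPM in PP, against 5.77, 4.56 and 6.36 CPM in PA/OA, with Lum and Ngfr at 0. Their part in the falls of Col27a1 and Col11a2, the fibrillar collagens called lower, was not tested. Col1a1 and Col5a1 did not pass. Endothelial markers summed to 1.14, 1.59 and 0.837 CPM in PP, against 0.829, 1.30 and 1.75 CPM in PA/OA.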

How the data were processed

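Gene counts of 6 libraries were used. The deposited counts are whole numbers per gene. The submitters' processing notes name featureCounts, DESeq2 1.16.1 and build mm10 with no roles; aligner, annotation, strandedness and which of the described library kits was used are not given. The coordinates of all 75 genes are those of GENCODE M21. The gene length in bases, deposited by the authors with the counts, was used for levels per kb.

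Groups came from the treatment labels. Counts were fitted in R 4.3.3 with edgeR 4.0.16 (filterByExpr, TMM, glmQLFit, two-sided glmQLFTest, Benjamini-Hochberg over 15718 genes, threshold 0.05). SE is the absolute fold change over the square root of F. Simulated counts of 15293 genes gave calls for 90.6% of 96 genes with a log2 change of 1 and for 58.2% of 98 with 0.5. The simulation gave every gene the same dispersion and changed few genes, evenly in both directions, while 75% of genes were called in the data. Those shares are therefore not the sensitivity reached in the data. Small counts were even in 57.1% to 61.5% of cases, so intervals may be too narrow, and counts were also halved. Of the 45 genes tested, 26 lie over another annotated gene.

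The genes and lists were chosen with earlier results of these data known. Values per library were given for 8 members a direction, those changed most with no overlap of groups and an average log2 CPM from 1 up, the highest member per kb of each class, collagen IV genes and Itgb1, and up to 4 genes of smallest p from each list; the others were chosen after their values were seen. Alternatives were other scalings, filters, DESeq2 1.42.0, limma-voom (limma 3.58.1), the replicate block, protein-coding genes only, removed trends with abundance or length (lowess, span 0.4), and each library left out. Results of 2 genes are not reported here; they remain in the counts.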

Additional observations from a re-analysis of the deposited data

How the results depend on the processing

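With library size only, 9 of the 45 genes were higher and 28 lower, and 3235 and 8910 of all genes, with a median of all genes of -0.52. Under every other alternative the higher count was 11 to 17 and the lower 15 to 25. Leaving out 1 library gave 14 to 15 higher and 15 to 19 lower. Direction turned as follows. With library size only it turned for Col12a1 (-0.080), Col18a1 (-0.36), Col4a2 (-0.011), Itga3 (-0.38), Itga6 (-0.37), Itgb1 (-0.38), Itgb5 (-0.42), Lamb2 (-0.016) and Lamb3 (-0.14). With upper-quartile scaling it turned for Col18a1 (-0.16), Itga3 (-0.19), Itga6 (-0.18), Itgb1 (-0.19) and Itgb5 (-0.23). With the abundance trend removed it turned for Col18a1 (-0.57), Col1a1 (0.85), Col4a2 (-0.12), Col4a6 (0.012), Col5a1 (0.77), Col6a3 (0.60), Itga10 (0.36), Itga3 (-0.53), Itga6 (-0.40), Itgb1 (-0.61), Itgb5 (-0.24) and Lamb3 (-0.37). Among protein-coding genes only, Col18a1 (-0.0087), Itga3 (-0.031), Itga6 (-0.021), Itgb1 (-0.030) and Itgb5 (-0.071) turned. With at least 1 CPM in 3 libraries Itga3 (-0.0028), Itgb1 (-0.0018) and Itgb5 (-0.042) turned, and with counts halved Itgb5 (-0.023). With 1 library left out, Col1a1 ran from -1.06 to 0.063, Col5a1 from -0.58 to 0.064, Itga3 from -0.026 to 0.15 and Itgb5 from -0.029 to 0.074. The cause of these changes was not tested.

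With the replicate number as a block, 15 of the 45 genes were higher and 18 lower, and 11515 of all genes were called. Deviations of same-numbered libraries correlated at 0.0052, 0.0030 and -0.023, and those of differently numbered libraries at -0.026 to 0.022. Correlations this small cannot settle whether libraries were paired, and the labels do not say. The counts of Lama3, Col9a3, Col4a4, Col10a1, Col17a1 and Col23a1 limit the precision of their values.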

Other observations

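The fibrillar collagens of connective tissue were not even among the PP libraries. Over Col1a1, Col1a2, Col3a1, Col5a1 and Col5a2, PP replicates 1, 2 and 3 held 31, 35 and 135 counts, and PA/OA replicates 1, 2 and 3 held 69, 65 and 54. Col3a1, the chain of reticular fibres, held 2, 3 and 36 counts in PP and 3, 0 and 2 in PA/OA. Col1a2 held 2, 2 and 16 counts in PP and 1, 7 and 2 in PA/OA. In PP replicate 3, Acta2, a gene of contractile cells, held 10 counts, beside none in the other PP libraries and 21, 20 and 22 in PA/OA, while Dcn held 4, 2 and 2 counts in PP and 8, 0 and 0 in PA/OA, and Lum none in any library. These 5 collagens were summed after their values were seen, and no test was made.

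Itga2b, the alpha chain that pairs with Itgb3 in platelets and lies outside the rule, held 10, 10 and 33 counts in PP and 49, 27 and 39 in PA/OA, and did not pass (-0.94 ± 0.46, adjusted p = 0.0701, edgeR), while Itgb3 rose.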
